A study of Caenorhabditis elegans with 2 samples.

Results

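In C. elegans, 10 genes of the cell cycle were followed through the peak lists of a chromatin immunoprecipitation and sequencing (ChIP-seq) study of SDC-2, out of 19973 protein-coding genes on the 6 nuclear chromosomes. The list was chosen by the peak calls at 2 of them, cye-1 and cdk-4, which have reproducible SDC-2 peaks near their 5′ ends, so all calls are given as description, without a test. The 10 genes comprise 6 that act in G1 or at the entry to S phase (cdk-4, cyd-1, cki-1, cye-1, cdk-2 and lin-35) and 4 counted as mitotic (cdk-1, cyb-1, cyb-3 and cya-1). The study has 1 group of 2 biological replicates, and no wild type, male or later stage was analysed here. Both replicates are whole hermaphrodite embryos of strain OP92, a transgenic line whose SDC-2 carries GFP and FLAG at its C terminus, collected late in embryogenesis, 3.25 hours after the eggs were released with bleach. Chromatin was sheared by sonication and precipitated through the tag with an antibody against GFP. All tissues of the embryo are mixed, dividing and non-dividing, so binding in few cells and weak binding in many cells cannot be told apart.

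SDC-2 is the protein by which XX worms recognise their X chromosomes, and it brings the condensin-like dosage compensation complex there to lower transcription. Most somatic cells of the worm are born in the embryo, and many leave the cell cycle before hatching. In G1, cyclin D (cyd-1) with CDK-4 and cyclin E (cye-1) with CDK-2 drive cells towards DNA replication, while the CIP/KIP inhibitor CKI-1 and the retinoblastoma relative LIN-35 hold them back. Entry into and passage through mitosis depend on CDK-1 with cyclins A and B (cya-1, cyb-1, cyb-3).

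The authors deposited a list of peaks and background for each replicate and for the pooled reads, and a list that passed their threshold of irreproducible discovery rate (IDR). On the nuclear chromosomes these hold 25174 peaks (replicate 1), 24434 (replicate 2), 26639 (pooled) and 1343 (IDR). Each peak has the authors' signal, which ranks peaks within a list. The pooled and replicate lists are on separate scales. The 1343 IDR peaks are the 1343 strongest pooled peaks, with a lowest signal of 82.4, so an IDR call at a gene is the same statement as a pooled signal of that size. The lists hold no read counts, and the depth is therefore unknown.

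Within each gene and 5000 bp on either side, an IDR summit was found at 5 of the 10 genes, against 14.6% of all protein-coding genes. By class these were 4 of the 6 G1 genes (cdk-4, cki-1, cye-1 and lin-35) and 1 of the 4 mitotic genes (cya-1). Near an annotated transcript 5′ end, which here means a distance of up to 1000 bp, 4 of the 6 G1 genes and 0 of the 4 mitotic genes had an IDR summit, against 4.64% of all protein-coding genes. Since cye-1 and cdk-4 chose the list, the 2 remaining genes in that count are cki-1 and lin-35, of 4 other G1 genes. Only cdk-4 lies on X, where 11.2% of genes had an IDR summit near a 5′ end and 33.2% had one in the gene or its flanks. On the autosomes, where the other 9 genes lie, the shares were 3.60% and 11.6%. Pooled peaks separated the genes less, as all 10 had one in the gene or its flanks, where 86.4% of all protein-coding genes do, and all 10 had one near a 5′ end, where 46.1% of all genes do.

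**Figure D1:**
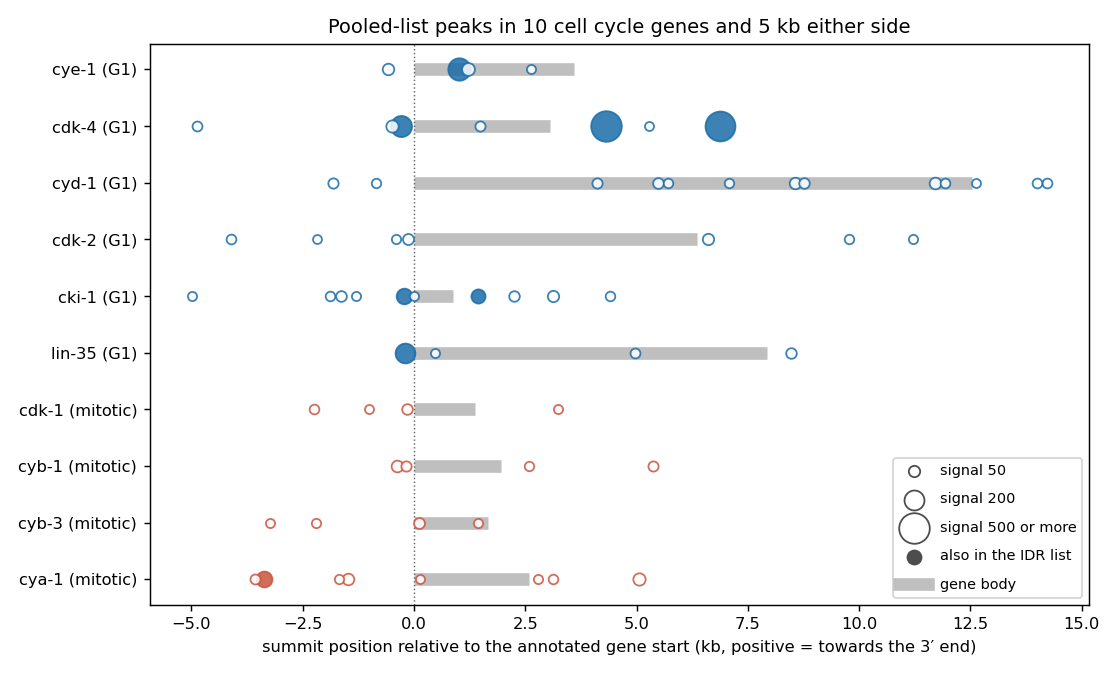
Summits of the pooled list in each gene and 5000 bp either side, by distance from the annotated gene start (kb), with G1 genes above mitotic genes. Filled circles are also IDR peaks and circle area follows the signal up to 500; 7 of the 8 filled circles belong to G1 genes and 1 to cya-1.

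The cyclin D kinase gene cdk-4 (WBGene00000406, X:13515856-13518911 in ce11, minus strand) had the strongest peaks of the 10 genes. Of its 7 pooled peaks 3 were IDR peaks, and just 1 of those lay near its 5′ end. That peak, 293 bp wide, had its summit 283 bp upstream of cdk-4 and 469 bp upstream of F18H3.1, the divergently transcribed neighbour, and it cannot be assigned to one of them. Its signal was 226.3 in the pooled list (rank 199), 106.2 in replicate 1 (rank 203) and 119.3 in replicate 2 (rank 194). The other IDR peaks lay beyond the 3′ end. The one 1265 bp past it was 751 bp wide and reached 4748.6 in the pooled list, 2418.2 in replicate 1 and 2366.2 in replicate 2, and it held rank 21 in all of these lists. It was thus one of the strongest SDC-2 peaks on X, and it lay 4320 bp from the cdk-4 5′ end. The last, 3822 bp past the 3′ end, had a signal of 476.4 in the pooled list (rank 70), 213.9 in replicate 1 (rank 76) and 267.0 in replicate 2 (rank 65). Its summit lay 7 bp inside a gene for tRNA-Pro, H06A10.t1. These windows, each reaching 100 bp to either side of a summit, are shown, plus strand of ce11, because they differ in kind. Capitals mark the 72 bases of the tRNA gene (which is on the minus strand) in the first, the letters CGCAGGGA in the second and the 21 bases centred on the summit in the third.
tRNA-Pro peak downstream of cdk-4, X:13511934-13512134: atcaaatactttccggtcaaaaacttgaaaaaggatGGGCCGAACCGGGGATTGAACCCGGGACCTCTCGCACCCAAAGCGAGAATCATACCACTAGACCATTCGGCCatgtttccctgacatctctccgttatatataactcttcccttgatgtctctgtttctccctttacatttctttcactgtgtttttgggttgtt
strongest peak downstream of cdk-4, X:13514491-13514691: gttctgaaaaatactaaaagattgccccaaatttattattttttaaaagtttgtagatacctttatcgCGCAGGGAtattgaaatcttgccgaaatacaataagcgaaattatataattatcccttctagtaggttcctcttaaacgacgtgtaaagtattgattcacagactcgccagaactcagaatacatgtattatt
peak upstream of cdk-4, X:13519094-13519294: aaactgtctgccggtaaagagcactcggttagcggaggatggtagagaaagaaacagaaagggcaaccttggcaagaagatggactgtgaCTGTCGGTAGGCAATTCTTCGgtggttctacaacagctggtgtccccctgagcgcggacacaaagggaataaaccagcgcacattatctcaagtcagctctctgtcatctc

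The 3 windows differed in base composition. GC made up 44.8% of the tRNA window, 31.8% of the window at the strongest peak and 50.7% of the window upstream of cdk-4, against a median of 49.3% over all IDR windows. CGCAGGGA, found 32 bp left of the strongest summit, was 1 of 7 strings sought on both strands. It was present in 1.49% of all IDR windows and in 0.304% of all pooled windows. The next cdk-4 peak below the IDR list, 487 bp upstream of the gene, had a pooled signal of 62.4 (rank 2679). It ranked 2512 in replicate 1 and 9743 in replicate 2. This peak overlapped the IDR peak upstream of cdk-4 and may not be a separate site. Within the first intron of cdk-4 a single weak peak was listed, with a pooled signal of 35.5.

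Cyclin D itself, cyd-1 (WBGene00000870, II:12980591-12993117, plus strand), had no IDR peak. It is the longest of the 10 genes and had the most pooled peaks, 13, with 8 in replicate 1 and 12 in replicate 2. These were weak and spread along the gene and its flanks, with pooled signals from 23.4 to 54.2. The strongest, in a coding exon 11711 bp from the gene start, ranked 3850 in the pooled list, 9191 in replicate 1 and 2739 in replicate 2. Within 1000 bp of a 5′ end the strongest had a signal of 52.2 (rank 4238), with 22.2 in replicate 1 (rank 7751) and 29.5 in replicate 2 (rank 4384). That summit lay in a coding exon 932 bp past the start of the shorter of 2 annotated transcripts, and 8564 bp from the gene start. The pooled summit nearest to the gene start lay 861 bp upstream of it. The D-type partners differed in these lists, cdk-4 carrying IDR peaks on X and cyd-1 none on chromosome II. The list was chosen in part by the cdk-4 peak, so that side of the contrast was fixed beforehand. IDR summits in the gene or its flanks were also commoner on X (33.2% of genes) than on the autosomes (11.6%).

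The inhibitor gene cki-1 (WBGene00000516, II:7811240-7812105, plus strand) is the shortest of the 10 and had 10 pooled peaks in its 10.9 kb window, 9.20 per 10 kb, where the genome as a whole had 2.66. Its main IDR peak had its summit 215 bp upstream of the 5′ end. The signal was 114.9 in the pooled list (rank 625), 53.0 in replicate 1 (rank 728) and 69.9 in replicate 2 (rank 500). No annotated 5′ end of another gene lay closer to it than that of cki-1. A second IDR peak, 575 bp past the 3′ end and 1440 bp from the 5′ end, had a pooled signal of 89.3 (rank 1139) and ranked 979 in replicate 2, at 52.2. The nearest summit of replicate 1 lay 102 bp away, just past the 100 bp used here to match peaks, in an overlapping peak with a signal of 36.1 (rank 1964). The summit lay 77 bp from the 5′ end of a non-coding RNA gene, T05A6.17. Both windows, 100 bp to either side of the summit on the plus strand of ce11, are shown as the IDR sites around this gene. The 21 bases centred on the summit are in capitals.
peak upstream of cki-1, II:7810925-7811125: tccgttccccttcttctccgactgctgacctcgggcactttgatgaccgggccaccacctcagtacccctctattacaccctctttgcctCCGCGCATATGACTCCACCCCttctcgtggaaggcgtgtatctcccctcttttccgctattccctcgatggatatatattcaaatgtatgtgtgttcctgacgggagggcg
peak downstream of cki-1, II:7812580-7812780: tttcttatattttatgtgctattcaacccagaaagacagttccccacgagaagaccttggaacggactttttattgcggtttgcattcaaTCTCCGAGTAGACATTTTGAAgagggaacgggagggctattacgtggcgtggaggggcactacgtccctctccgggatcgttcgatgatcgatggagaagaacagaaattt

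The upstream window had a GC share of 54.7%, the highest of the IDR windows shown, and the downstream window 46.3%. None of the 7 strings was found in either. The remaining 8 pooled peaks at cki-1 were weak, with signals from 24.5 to 50, and they lay on both sides of the gene. The last of them, at 29.5, lay 857 bp upstream of the sister gene cki-2, which had no stronger peak near its own 5′ ends.

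**Figure D2:**
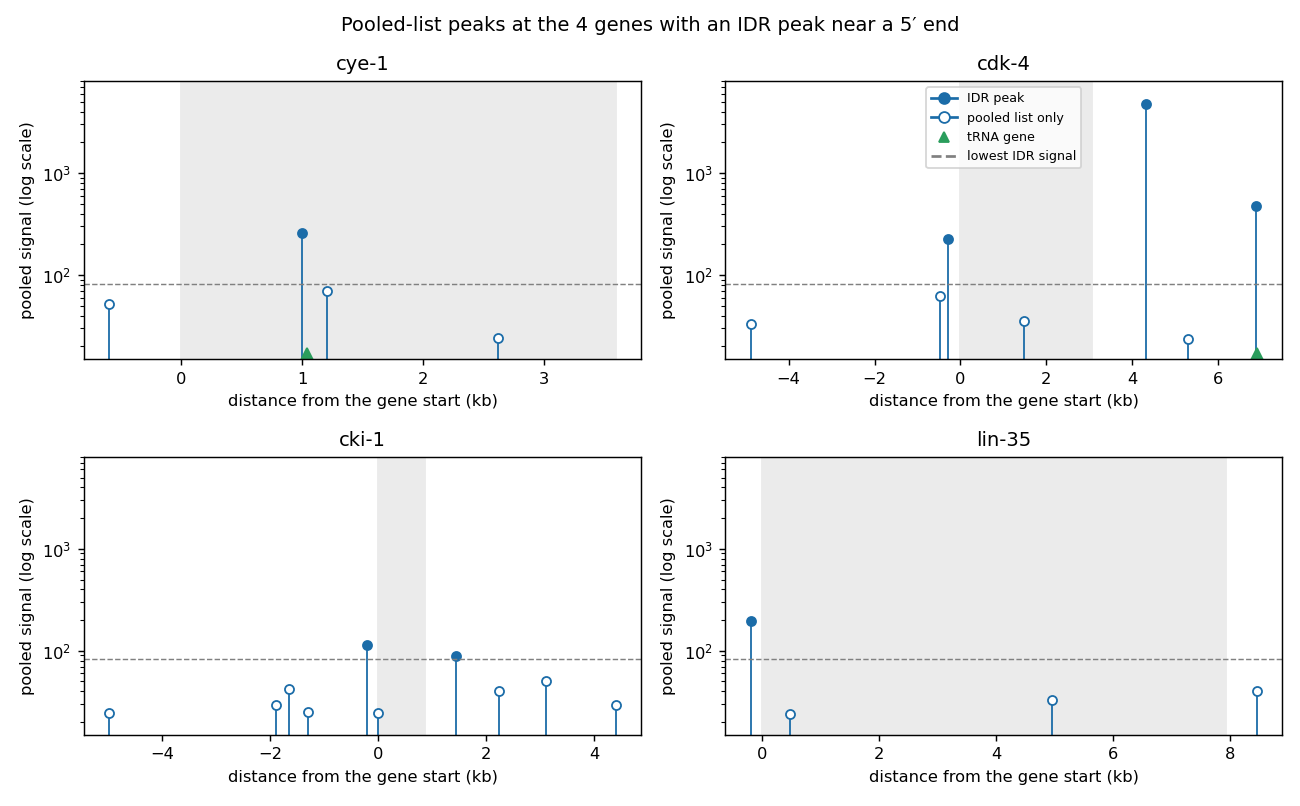
Pooled signal of each summit (log scale) by distance from the gene start (kb) at cye-1, cdk-4, cki-1 and lin-35, with the gene body shaded. Filled points are IDR peaks, the dashed line is the lowest IDR signal of 82.4, and triangles mark tRNA genes, which stand under the peaks at 257.7 (cye-1) and 476.4 (cdk-4).

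Cyclin E, cye-1 (WBGene00000871, I:6780799-6784397, plus strand), had 1 IDR peak, and it was the strongest peak near a 5′ end among the 10 genes. Its signal was 257.7 in the pooled list (rank 153), 143.7 in replicate 1 (rank 123) and 114.9 in replicate 2 (rank 208). The peak did not lie at the promoter. The summit was 996 bp past the nearest annotated 5′ end and 1003 bp past the gene start, in the second intron, 1 bp before a gene for tRNA-Cys, C37A2.t1 (I:6781803-6781874, plus strand). In replicate 1 the summit lay 6 bp before this tRNA gene and in replicate 2 it lay 2 bp inside it. In the IDR list the peak was 169 bp wide, and the other IDR peaks of these genes measured 293 to 751 bp. It was 450 bp wide in both replicate lists, the width of the cki-1, lin-35 and cya-1 IDR peaks. A narrow shape is therefore not an established trait of this site. The promoter side of cye-1 had a pooled peak below the IDR list, 594 bp upstream, with a signal of 52.3 (rank 4219), 31.0 in replicate 1 (rank 3046) and 23.5 in replicate 2 (rank 8090). That summit lay closer to the 5′ end of pqn-21, at 54 bp. The strongest pooled peak of all 10 genes that missed the IDR list was also at cye-1, with a signal of 69.6 (rank 2005). Its summit lay in a coding exon 200 bp past the start of the tRNA gene. It overlapped the cye-1 IDR peak and may not be a separate site.

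Among all IDR summits, 161 lay within 100 bp of a tRNA gene, 12% of the list, against 1.36% of all pooled summits. The 8 IDR peaks at the cell cycle genes included 2 such summits, those at cye-1 and downstream of cdk-4. Of 612 annotated tRNA genes, 163 (26.6%) had an IDR summit within 100 bp. On the autosomes the share was 22.3%. The IDR calls at cye-1 and at its tRNA gene are thus one and the same peak, and the part of the tRNA gene in the call was not tested.

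The cyclin E kinase gene cdk-2 (WBGene00019362, I:3410013-3416368, plus strand) had 7 pooled peaks and no IDR peak. Of these, 2 lay near its 5′ end, the weaker with a signal of 26.1. The stronger, 139 bp upstream, had a signal of 46.1 (rank 5920), with 29.5 in replicate 1 (rank 3511) and 15.6 in replicate 2 (rank 20152). The replicates thus placed it far apart, near the bottom of the list in replicate 2. The strongest pooled peak at cdk-2, at 50, lay 252 bp past the 3′ end and ranked 17842 in replicate 1 and 3017 in replicate 2.

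The retinoblastoma relative lin-35 (WBGene00003020, I:5807709-5815637, plus strand), a repressor of cell cycle genes in the DREAM complex, had 1 IDR peak among 4 pooled peaks. Its summit lay 192 bp upstream of lin-35 and 226 bp upstream of the divergent gene vps-51. The replicate 2 summit was also nearer to lin-35, but the replicate 1 summit was nearer to vps-51. This peak too cannot be assigned to one of the neighbours. The signal was 197.0 in the pooled list (rank 237), 78.3 in replicate 1 (rank 342) and 117.1 in replicate 2 (rank 200). This was the strongest autosomal IDR peak of the 10 genes lying in the sequence just upstream of a 5′ end. The other 3 pooled peaks, at 24.2, 32.7 and 40.4, lay in an intron, a coding exon and the neighbouring gene hmg-3.

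The mitotic kinase gene cdk-1 (WBGene00000405, III:9747472-9748852, plus strand) had no IDR peak. Its strongest pooled summit lay 149 bp upstream, and 130 bp from the divergent gene iff-1, with a signal of 40.7 (rank 8056). Replicate 1 placed the matching peak at rank 2504, with 33.0, and replicate 2 had none within 100 bp. The strongest replicate 2 peak near the cdk-1 5′ end, 402 bp from that summit, had a signal of 20.1 (rank 11705).

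Of the B cyclins, which activate CDK-1 at the entry to mitosis, cyb-1 (WBGene00000865, IV:10735216-10737177, plus strand) had the strongest peak near a 5′ end among the mitotic genes. It had a signal of 54.9 (rank 3734), with 19.8 in replicate 1 (rank 10496) and 28.9 in replicate 2 (rank 4632). The summit lay 378 bp upstream of cyb-1 and closer, at 250 bp, to orc-5, which encodes a subunit of the origin recognition complex. At cyb-3 (WBGene00000868, V:15395696-15397353, plus strand) the strongest summit lay in the first intron, 96 bp past a 5′ end, with a signal of 44.5 (rank 6487) and 24.7 in replicate 1 (rank 5756). Replicate 2 had no peak within 1000 bp of a cyb-3 5′ end. Neither gene had an IDR peak in its window.

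Cyclin A, cya-1 (WBGene00000863, III:9106699-9109272, minus strand), which partners CDKs in S phase and mitosis, had the single IDR peak among the mitotic genes. It lay 3375 bp upstream, with ZK512.1 the closer 5′ end at 2302 bp, and had a signal of 118.5 in the pooled list (rank 590), 51.2 in replicate 1 (rank 788) and 68.5 in replicate 2 (rank 526). By signal it resembled the peak upstream of cki-1, but it stood away from any start. Near its own 5′ end cya-1 had the weakest best peak of the 10 genes, at 23.5 (rank 24853), in its first intron. A peak at 62.7 (rank 2646), 2482 bp past the 3′ end, lay on the tRNA gene ZK507.t1 and was not in the IDR list. The window of the IDR summit is shown in the plus strand of ce11 as the mitotic counterpart of the G1 sites, with the 21 bases centred on the summit in capitals.
peak upstream of cya-1, III:9112547-9112747: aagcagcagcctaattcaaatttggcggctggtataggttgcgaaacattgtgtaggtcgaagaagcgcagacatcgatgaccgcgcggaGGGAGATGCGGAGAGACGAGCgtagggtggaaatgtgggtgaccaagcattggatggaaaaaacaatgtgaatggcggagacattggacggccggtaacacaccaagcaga

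Ordered by the strongest pooled signal within 1000 bp of a 5′ end, the genes ran cye-1, cdk-4, lin-35, cki-1, cyb-1, cyd-1, cdk-2, cyb-3, cdk-1 and cya-1. The median was 155.9 over the 6 G1 genes (46.1 to 257.7) and 42.6 over the 4 mitotic genes (23.5 to 54.9), and the ranges overlapped through cyd-1 and cdk-2. The G1 median includes cye-1 and cdk-4, whose peaks chose the list, and the 4 other G1 genes had a median of 83.5 (46.1 to 197.0). The cye-1 value, in the order and in the G1 median, is that of the peak at its tRNA gene, 996 bp past a 5′ end. The only other pooled cye-1 peak within 1000 bp of a 5′ end had 52.3. Over all 10 genes the median was 53.5, against 37.1 over the 9209 protein-coding genes with such a peak. In both replicate lists the same 4 genes, cye-1, cdk-4, lin-35 and cki-1, stood above the other 6, with cki-1 the lowest of the 4. The order among the top 3 differed between replicates, since cye-1 led in replicate 1 and cdk-4 (119.3), lin-35 (117.1) and cye-1 (114.9) were close together in replicate 2. Among the lower 6 the order changed too, with cdk-1 the highest in replicate 1 and cyd-1 in replicate 2. Those 6 cannot be ranked from 2 replicates.

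**Figure D3:**
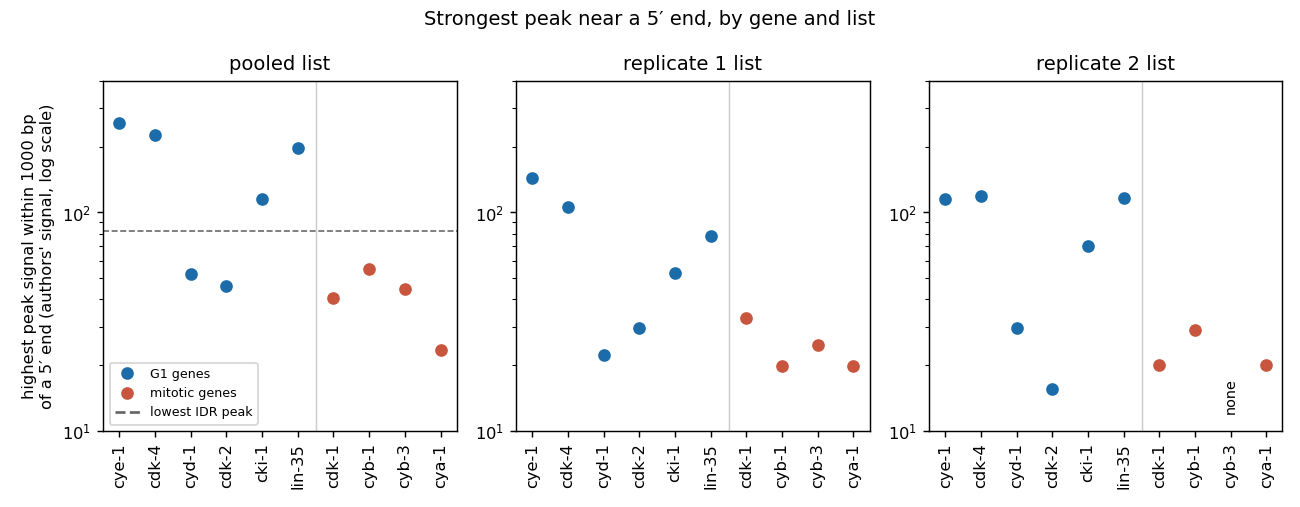
The highest authors' signal within 1000 bp of a 5′ end (log scale) for each gene in the pooled list and in both replicate lists, G1 genes left of mitotic genes; each panel has its own scale of signal. The points of 4 G1 genes lie above the lowest IDR signal of 82.4 in the pooled panel, and cyb-3 has no such peak in replicate 2.

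Set among all genes of the same chromosome class, 21 of 17242 autosomal genes, 0.122%, had a peak near a 5′ end as strong as that of cye-1 or stronger. That cye-1 peak is the one at the tRNA gene, 996 bp past a 5′ end and not at the promoter. The share was 0.278% for lin-35 and 1.33% for cki-1. On X, 61 of 2731 genes, 2.23%, reached the signal of cdk-4, so a similar signal was a commoner one there. For the remaining genes the shares were 10.4% (cyd-1), 13.9% (cdk-2), 9.36% (cyb-1), 15.1% (cyb-3), 17.9% (cdk-1) and 42.5% (cya-1). Directly above and below cye-1 came idhg-1 (264.4), which shares its peak with mlcd-1, and F55A11.11 (255.1), which shares its peak with F55A11.6. Around cdk-4 on X were smvt-1 (226.5) and C25A11.2 (224.6). Around lin-35 were B0495.9 (197.5), with sre-1 at the same peak, and T15B12.1 (196.4), and around cki-1 were sax-7 (115.1) and F32D8.13 (114.8), with sec-61.G at the same peak.

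**Figure D4:**
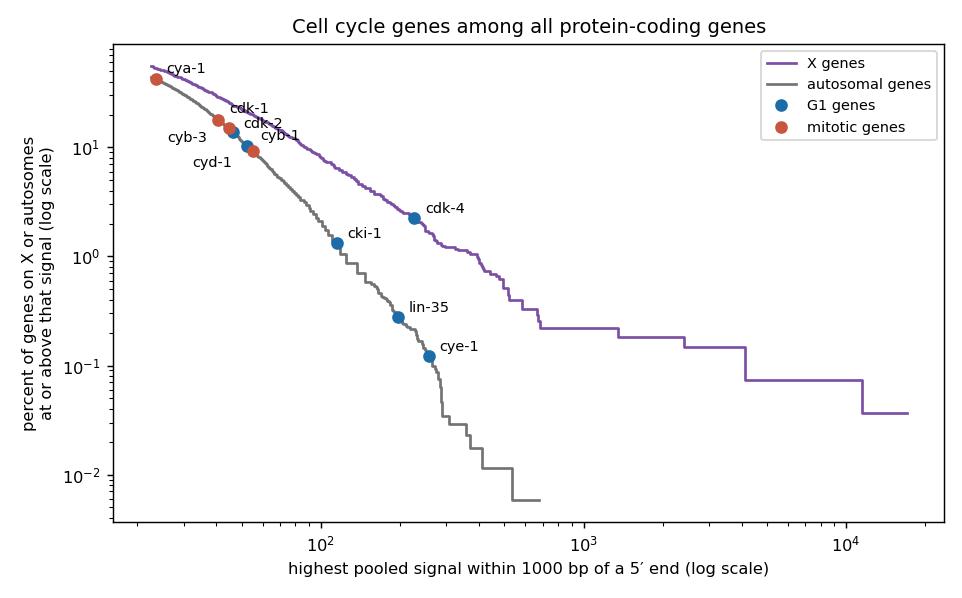
Percent of protein-coding genes on X or on the autosomes (log scale) whose strongest pooled peak within 1000 bp of a 5′ end reaches a given signal (log scale), with the 10 genes marked. The lin-35 and cye-1 points lie where under 1% of autosomal genes remain, and the cdk-4 point lies on the X curve at 2.23%.

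The windows of the G1 genes, 94.3 kb in all, held 45 pooled peaks (4.77 per 10 kb), and the 47.6 kb of the mitotic genes held 20 (4.20 per 10 kb). Both densities were above the 2.66 per 10 kb of the nuclear genome, a figure over all sequence. Densities in windows around other genes were not computed, so an excess at cell cycle genes is not shown. The median signal of these peaks was 35.5 at G1 genes and 30.4 at mitotic genes, against 32.6 for all pooled peaks. IDR peaks numbered 7 at G1 genes, 0.742 per 10 kb, and 1 at mitotic genes, 0.210 per 10 kb, against 0.134 over the genome and 0.318 on X. Of those 7, 3 were at cdk-4. Without cye-1 and cdk-4 the other 4 G1 genes had 3 IDR peaks, 0.443 per 10 kb. Some pooled peaks share sequence, 19 at G1 genes and 8 at mitotic genes overlapping another peak, so the peaks are not independent sites. Summits at G1 genes fell in coding exons 10 times, in introns 11 times and between genes 24 times. Those at mitotic genes fell in coding exons 2 times, in an untranslated exon 1 time, in introns 7 times and between genes 10 times. Over the genome 27.5% of pooled summits were in coding exons, 5.74% in untranslated exons, 28.9% in introns and 37.9% between genes.

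The replicates shared the strong peaks and differed in the weak ones. A summit within 100 bp in both replicate lists was found for 18 of the 45 pooled peaks at G1 genes and for 5 of the 20 at mitotic genes. Over the 10 genes this was 35.4%, against 31.3% of all pooled peaks. Of the 8 IDR peaks, 7 were matched in both replicates, the exception being the one downstream of cki-1, whose overlapping replicate 1 peak had its summit 102 bp away. Among pooled peaks below the IDR list, 12 of 38 at G1 genes and 4 of 19 at mitotic genes were matched in both. The IDR list is built from these same replicate lists, so the matches are no separate evidence for its calls.

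**Figure D5:**
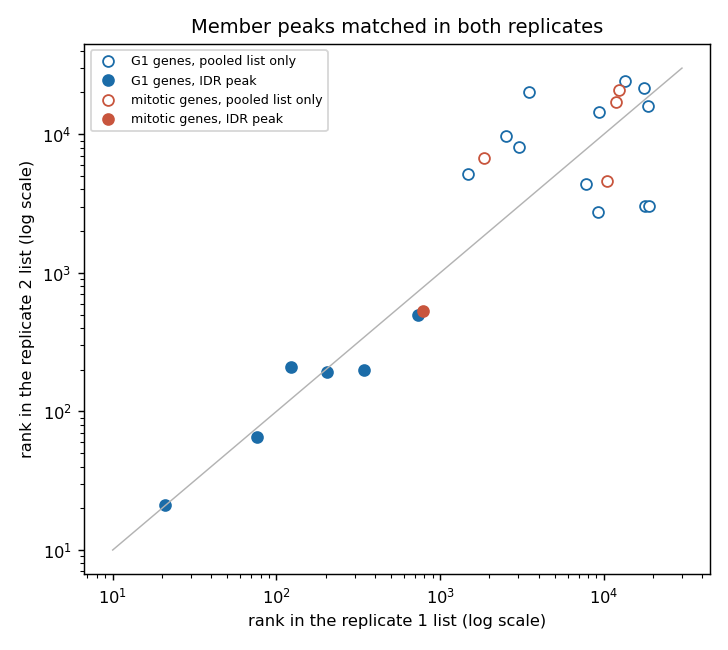
Rank in replicate 2 against rank in replicate 1 (both log scale) for the 23 pooled peaks of the 10 genes with a summit within 100 bp in both lists, 18 at G1 genes and 5 at mitotic genes; the line marks equal ranks. The 7 filled IDR peaks lie near the line, from rank 21 in both lists to the cya-1 peak at 788 and 526, and the open points are scattered.

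In windows of 100 bp to either side of each pooled summit, 7 strings of 8 letters were sought on both strands. They were AGACGCAG, GAGAGAGA and CGCAGGGA, which came from an earlier analysis of these data, and the E2F-type sites TTTCCCGC, TTTCGCGC, TTTGCCGC and TTTGGCGC. AGACGCAG and CGCAGGGA can overlap in the letters CGCAG. At least 1 string was found in 6 of the 45 windows at G1 genes and in 0 of the 20 at mitotic genes, where 12.3% of all pooled windows had one. E2F-type sites were found in 4 windows at G1 genes, against 4.79% of all pooled windows. These were the peak 594 bp upstream of cye-1, with TTTCGCGC and TTTGCCGC, the peak 139 bp upstream of cdk-2, with TTTCCCGC, the peak in the cdk-4 intron, with TTTGCCGC, and an intronic peak of cyd-1, with TTTCGCGC. None of these 4 was an IDR peak. AGACGCAG was found in the same upstream windows of cye-1 and cdk-2, against 12.2% of all IDR and 3.74% of all pooled windows. GAGAGAGA was found at 1 weak peak, 1894 bp upstream of cki-1, against 12% of all IDR and 4.61% of all pooled windows. Of the 8 IDR windows, only that of the strongest cdk-4 peak held one of the 7 strings, where 27.4% of all IDR windows did. Median GC was 43.3% over the G1 windows and 38.3% over the mitotic windows, against 42.8% over all pooled windows.

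A further 81 genes were listed as cell cycle genes by role or family, with earlier results of these data known. Cyclins and CDKs were listed by family, and whether each acts in the cell cycle was not checked. Of the 81 genes, 11 (13.6%) had an IDR summit near a 5′ end. On the autosomes they were 9 of 78, or 11.5%, beside the 3.60% of all autosomal genes given above. The list of E2F and DREAM genes, which holds partners of lin-35 and the related repressor lin-15B, had 4 of 11. These were lin-15B on X (130.7, 974 bp upstream), lin-9 (103.0), lin-54 (83.6, with rpl-12 closer at 39 bp) and efl-3 (82.9). The efl-3 value is close to the lowest IDR signal of 82.4, and its peak ranked 810 in replicate 1 and 3850 in replicate 2. The E2F gene efl-1 had a peak below the IDR list at 67.1. The ubiquitin ligase genes had 2 of 19, namely emb-1, a subunit of the anaphase-promoting complex, at 186.0 with K10D2.5 closer at 12 bp, and gfi-3, on X, at 172.6. The mitotic kinases and spindle checkpoint genes had 2 of 10, bub-1 (86.4) and san-1 (82.9). One gene each was counted among 9 other cyclins (cyl-1, 82.7), 8 other CDKs (cdk-9, 89.5) and 9 CDK inhibitors, phosphatases and inhibitory kinases (cdc-14, 98.9). None of the 15 replication licensing genes was counted, their strongest peak being that of cdc-6 at 55. In all, 53 of the 81 genes (65.4%) had a pooled peak near a 5′ end, with a median signal of 49.3, against 46.1% of all protein-coding genes and a median of 37.1. The replicates differed at some of these genes. At cdc-14 the peak ranked 10956 in replicate 1 and 458 in replicate 2, and at bub-1 the nearest replicate 1 summit lay 140 bp away at rank 3554, while replicate 2 had a matching one at rank 586. In the upper 671 IDR peaks, with signals of 111.8 or more, cye-1, cdk-4, cki-1 and lin-35 were still counted. Of the other cell cycle genes lin-15B, gfi-3 and emb-1 were. Among all autosomal genes, 1.40% had a signal of 113.2 or more near a 5′ end and 1.57% had 109.7 or more. On X, 6.85% of genes had 112.0 or more.

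The calls near the 5′ ends depended on the distance chosen for cye-1 alone. With a limit of 500 bp, or with the annotated gene start in place of all transcript starts, 3 of the 10 genes had an IDR summit, cdk-4, cki-1 and lin-35. The nearest IDR summit beyond the 1000 bp limit was the one 1440 bp from the cki-1 5′ end, at 89.3 also the weakest IDR peak of the 10 genes, and the strongest peak outside the IDR list was that at cye-1 with 69.6. In the 1343 strongest peaks of each replicate list the same 4 G1 genes had a summit within 1000 bp, and cya-1 joined them in the wider window. The share of all protein-coding genes was not counted for the 500 bp limit, the gene starts or the single replicates.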

How the data were processed

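Peak lists came from 2 ChIP-seq replicates of 1 group. As the deposited README texts state, peaks with background were called for every replicate and for the merged alignments, with a control alignment, and the IDR list was made from the resulting 3 lists. The aligner, the caller and the IDR cutoff were not given in the sources used here, and neither the control reads nor an untagged strain were analysed here. The unit used is the signal that the authors deposited with each peak, which describes and ranks peaks within a list. Summits are the peak start plus the deposited summit offset, the other column used. The ce11 lists were read with the WBcel235 sequence and Ensembl release 115 genes, and positions count from 1. tRNA products come from RefSeq. The ce10 lists and a mitochondrial peak were left out.

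For each gene, summits in the gene and 5000 bp either side were listed in all 4 lists. A summit within 1000 bp of any annotated transcript 5′ end counted as near it, and summits within 100 bp matched between lists. Hosts were taken in the order coding exon, untranslated exon, intron, intergenic. Peaks were counted with Python 3.11.15, and figures drawn with matplotlib 3.10.9. Only the step that assigns summits to genes was checked on simulated data, with summits planted at known distances from 5′ ends.

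The members, the gene lists and the 8-letter strings were chosen with earlier results of these data known, and the replicate lists feed the IDR list, so no test was made and counts are read against the share of all protein-coding genes. All 10 genes are named whatever their values. Of the other cell cycle genes, those with an IDR summit near a 5′ end are named, with some of up to 4 per role with the highest signal. The nearest genes in rank, 1 above and 1 below, and genes with a closer 5′ end are named too. Alternatives were other flanks and distances, overlap in place of summits, the upper part of the IDR list, and single replicates.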

Additional observations from a re-analysis of the deposited data

How the results depend on the processing

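With the flanks left out, 1 gene had an IDR summit (cye-1) in place of 5, 6 had a pooled summit in place of 10, and the pooled peaks numbered 14 at G1 genes and 3 at mitotic genes, while the shares of all protein-coding genes were 1.91% and 40.6%. Flanks of 2000 and 10000 bp gave 13 and 32 pooled peaks at mitotic genes in place of 20, and 8.82% and 23.0% of all genes with an IDR summit in place of 14.6%. The cye-1 distance was 1003 bp from the gene start. The median best rank of the 10 genes was 2179.5 in the pooled list and 1632.5 to 1646 in single replicates, whose lists have other lengths. Best ranks of weak genes differed between single replicates, as at cyb-3, with 16807 without replicate 1, 5756 without replicate 2 and 6487 pooled, and at cdk-1, with 4889, 2504 and 8056 in the same order. In the upper part of the IDR list, an alternative chosen after seeing the data, 3 of the 81 other cell cycle genes were counted in place of 11. Other alternatives for that count, also chosen later, gave 8 to 14, with 8 and 9 in single replicates. Summits matched in both replicates numbered 19 within 50 bp and 32 within 200 bp, in place of 23. Of the 10 genes, 3 or 4 had an IDR summit near a 5′ end in every alternative run. The G1 median near a 5′ end was 83.5 without cye-1 and cdk-4, in place of 155.9, a comparison added after seeing the data. No paired analysis was possible because there is 1 group. Without read counts, weak peaks and missing ones cannot be given an error.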
